A study of Mus musculus with 8 samples.

Results

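The retinoic acid genes examined here are 9 of the 21631 protein-coding genes annotated on 20 mouse chromosomes. They are the receptor genes Rara, Rarb and Rarg, the breakdown enzymes Cyp26a1 and Cyp26b1, the reductase Dhrs3, the dehydrogenase Aldh1a1, the carrier Crabp2 and the uptake receptor Stra6. They were chosen by name for their role, and the peaks of 8 libraries were read over each gene body plus 20 kb on each side (the gene's window, mm10). The assay was CUT&RUN, which uses an antibody to bring a nuclease to nucleosomes with a given histone mark and sequences the DNA that is cut free. It was run on haematopoietic stem cells (HSCs), which were sorted from bone marrow as Lin-cKit+Sca1+CD48-CD150+.

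The RXRKO cells carried VavCre and deleted alleles of both Rxra and Rxrb, the genes of retinoid X receptors alpha and beta. The WT cells had neither gene deleted. Their genotype label reads VavCre+; WT, whereas the study's design text describes them as Rxrabfl/fl, which leaves unsettled whether the controls carried Cre. Vav-Cre acts in the whole blood lineage, so the deletion was not limited to HSCs or to adult life. All mice were C57BL/6 and about 10 months old, cells of 4 or 5 animals were pooled, and each assay used 7500 HSCs. H3K4me1, found at enhancers and promoter flanks, had 2 RXRKO and 2 WT libraries. H3K4me3, typical of promoters, and H3K27ac, typical of regulatory DNA in use, had 1 RXRKO and 1 WT library each. The labels do not say that the H3K4me1 replicates came from separate pools, so p-values measure only the spread between libraries.

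Retinoic acid is made from vitamin A in a pair of oxidation steps and acts inside the nucleus. It binds retinoic acid receptors, which sit on DNA as heterodimers with a retinoid X receptor, the partner that RXRKO cells lack in its alpha and beta forms. Response elements are typically direct repeats of a short half-site, and Rarb and Cyp26a1 are textbook targets with such a repeat beside their promoters. In HSCs, retinoic acid signalling is known for its part in dormancy, and the cells limit it through CYP26 enzymes.

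Promoter sequences are shown for 4 of the genes, since the peaks at these starts differ in kind. Rarb and Cyp26a1 carry the repeat, Aldh1a1 had H3K27ac at its start in both genotypes, and Cyp26b1 had no peak of any mark within 1 kb of its start. Each runs 5′ to 3′ along the gene's strand from 250 bases before to 50 bases after a start listed by RefSeq (GRCm38.p6, the build also called mm10), and capitals mark the direct repeat.
Rarb (chr14:16575427-16575726, minus strand): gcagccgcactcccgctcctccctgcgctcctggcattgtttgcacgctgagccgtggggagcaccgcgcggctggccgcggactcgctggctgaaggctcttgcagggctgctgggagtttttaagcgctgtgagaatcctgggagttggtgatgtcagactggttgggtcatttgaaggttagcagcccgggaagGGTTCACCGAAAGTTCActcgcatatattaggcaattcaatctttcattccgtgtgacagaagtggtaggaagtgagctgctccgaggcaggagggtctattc
Cyp26a1 (chr19:37697558-37697857, plus strand): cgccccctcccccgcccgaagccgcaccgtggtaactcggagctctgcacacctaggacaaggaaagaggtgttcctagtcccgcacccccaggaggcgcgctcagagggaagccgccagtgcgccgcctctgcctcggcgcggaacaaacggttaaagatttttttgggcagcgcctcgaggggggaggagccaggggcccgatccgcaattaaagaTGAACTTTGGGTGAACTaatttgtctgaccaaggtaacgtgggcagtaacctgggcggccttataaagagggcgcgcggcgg
Aldh1a1 (chr19:20601718-20602017, plus strand): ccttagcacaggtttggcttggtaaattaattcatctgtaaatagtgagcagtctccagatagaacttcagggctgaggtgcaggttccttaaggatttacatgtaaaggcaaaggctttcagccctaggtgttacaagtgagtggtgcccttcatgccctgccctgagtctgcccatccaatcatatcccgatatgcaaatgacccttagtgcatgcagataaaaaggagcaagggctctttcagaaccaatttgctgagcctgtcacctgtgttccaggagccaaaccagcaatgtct
Cyp26b1 (chr6:84593761-84594060, minus strand): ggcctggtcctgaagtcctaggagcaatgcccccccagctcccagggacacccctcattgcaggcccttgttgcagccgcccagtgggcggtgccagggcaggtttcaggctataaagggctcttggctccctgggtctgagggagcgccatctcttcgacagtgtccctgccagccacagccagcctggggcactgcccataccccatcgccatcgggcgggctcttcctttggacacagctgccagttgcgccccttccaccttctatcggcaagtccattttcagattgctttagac

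The repeat searched for was a pair of half-sites in the same direction, each either the consensus AGGTCA or one of its close forms AGTTCA, then GGGTCA, and last GGTTCA, on both strands and separated by any 5, 2 or 1 bases (called DR5, DR2 and DR1). A DR5 lay in 32 of 32851 listed promoters, or 0.0974%, and 2 of those 32 belonged to Rarb and Cyp26a1. In Rarb the match was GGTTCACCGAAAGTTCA, 36 bases before the start (chr14:16575513-16575529). In Cyp26a1 it was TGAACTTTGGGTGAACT, which is a DR5 on the other strand, 15 bases before the start (chr19:37697776-37697792). A DR2 was found in 0.268% and a DR1 in 0.222% of promoters, and in none of the 18 listed promoters of the 8 genes that had an entry. A match describes the letters and is not evidence of binding. The Cyp26a1 promoter held 26 CpG dinucleotides and that of Rarb 17, against a median of 7 over all promoters of 300 bases. Aldh1a1 held 1 CpG at the start that carried its marks, and Cyp26b1 held 9.

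The lists give no read totals, so depth is unknown. A stand-in for it, the most frequent local background recovered from the peak caller's values, was 6.53 and 12.6 in the RXRKO H3K4me1 libraries and 5.62 and 7.37 in the WT ones. It was 6.68 in RXRKO and 4.12 in WT for H3K4me3, and 4.19 in RXRKO and 4.77 in WT for H3K27ac. Peaks covered 109.8 and 133.3 Mb in RXRKO and 112.5 and 117.8 Mb in WT for H3K4me1, 53.75 Mb and 45.51 Mb for H3K4me3, and 44.57 Mb and 47.13 Mb for H3K27ac. Inside Rxrb, a stretch of 781 bp (chr17:34033516-34034296) was called in both WT and in neither RXRKO H3K4me1 library, while the longest such stretch in Rxra was 76 bp and the longest in the opposite direction 340 bp, so the peaks do not show the Rxra deletion. Over the Rxrb window H3K27ac covered 5960 bp in RXRKO and 3832 bp in WT. The log2 difference was +0.60 after a median of −0.0721 over all genes was taken out by centring. That is just past 1.5-fold higher in RXRKO, as were 1.61% of all genes tested. A promoter peak of H3K4me3 in both genotypes was found at 14 of 14 HSC marker genes, at 1 of 8 granulocyte and monocyte genes, 2 of 8 lymphocyte genes, 6 of 7 erythroid and megakaryocyte genes, 6 of 7 stromal and endothelial genes and 2 of 7 genes silent in blood. Over the 8 granulocyte and monocyte windows, H3K27ac covered 15105 bp in RXRKO and 18906 bp in WT, and H3K4me3 19508 bp in RXRKO and 14551 bp in WT, with Ly6g at 0 bp in every library. Of these genes, Elane and Mpo were at least 1.5-fold lower in RXRKO for H3K27ac, as were 2.32% of all genes tested. Csf1r and Itgam were at least 1.5-fold higher for H3K4me3, as were 1.88% of all genes tested. In other marker lists, Hbb-bt (erythroid) was at least 1.5-fold higher in RXRKO for H3K4me3, and Syt1 (silent in blood) for H3K27ac. Of all genes tested, 1.88% and 1.61% were. The part of these values in the results below was not tested.

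**Figure D1:**
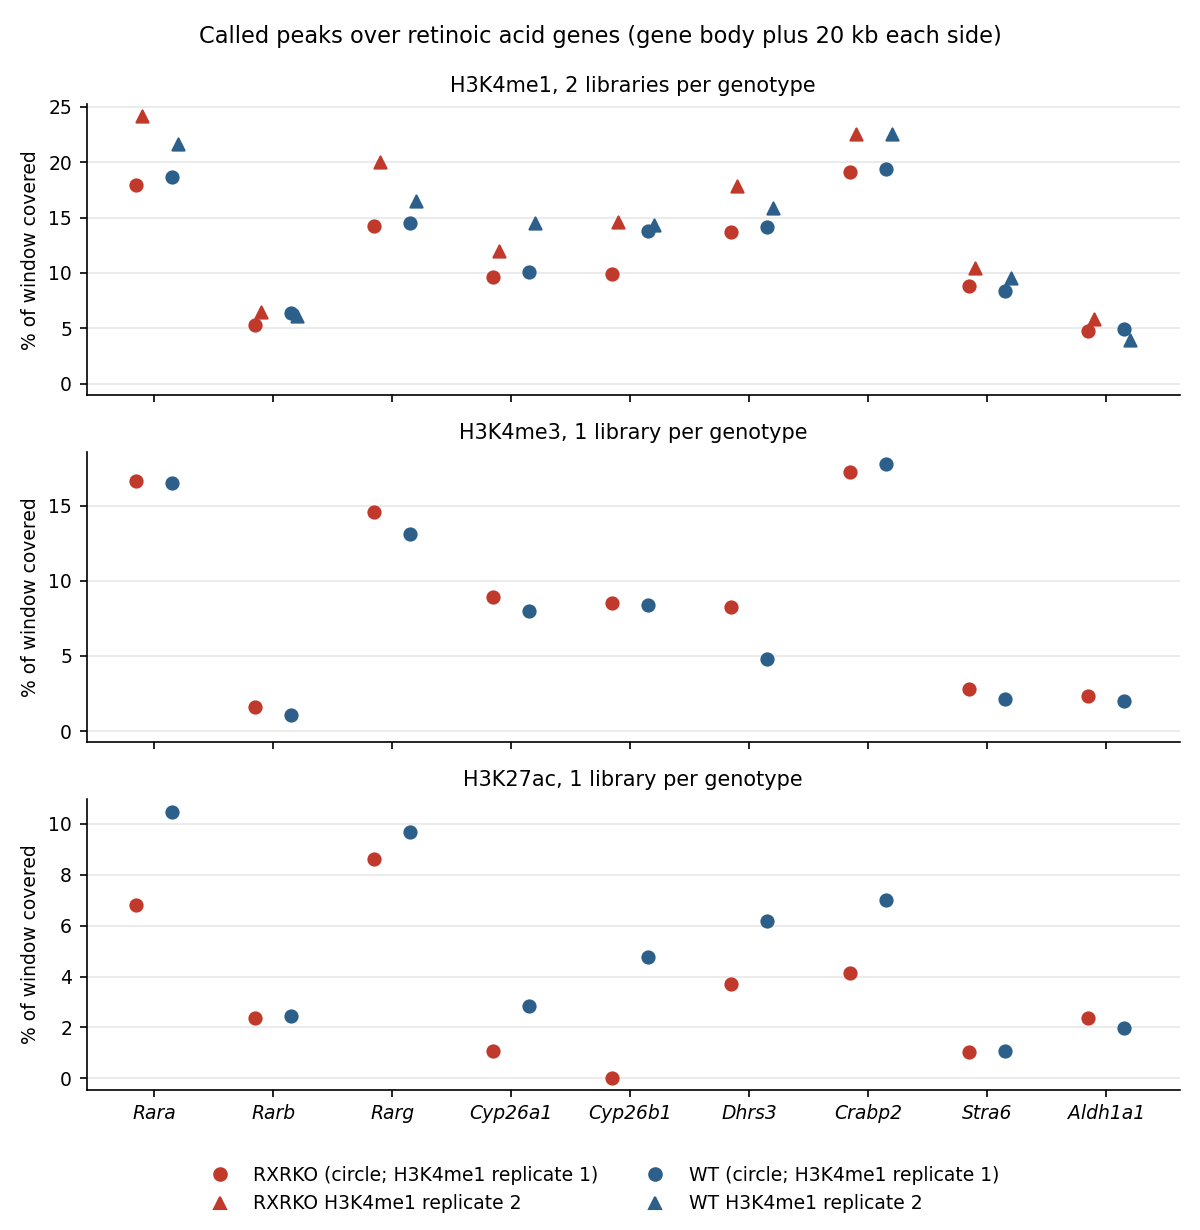
Percentage of each gene's window (gene body plus 20 kb each side) covered by called peaks, per library, with RXRKO in red left of WT in blue. In the H3K27ac panel Cyp26b1 sits at 0 in RXRKO and at 4.79% in WT, and 8 of the 9 genes had less covered length in RXRKO, Aldh1a1 being the exception. Of all genes tested, 63.2% had less in RXRKO before centring. After centring, 6 of the 9 genes lay below 0, beside 50% of all genes by construction.

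The comparison of H3K4me1 asks whether the enhancer mark over these genes differed without the receptors' partner, and none of the 9 genes passed the test. Covered length was taken as log2 of the base pairs plus 1000, centred on each library's median, and tested with limma over 17760 genes. It called 0 genes in either direction (0% higher and 0% lower in RXRKO), with 1051 at an unadjusted p under 0.05. Of the 9 genes, 4 lay above 0 and 5 below, with a median log2 difference of −0.010, beside −0.0045 over all genes tested. After centring, 3 of the 9 had both RXRKO libraries below both WT libraries (Rarb, Cyp26b1 and Crabp2), where 17.6% of all genes did, and none had both above, where 15.7% did. In base pairs before centring, the libraries of all 3 overlapped.

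Rara encodes the alpha receptor, which is broadly expressed in blood cells. Its window held 15619 and 21086 bp of H3K4me1 in RXRKO and 16298 and 18827 bp in WT. The groups overlapped, and the log2 difference was −0.01 (SE 0.083, limma adjusted p = 0.998), with a value of +0.05 when libraries were not centred. H3K4me3 covered 14480 bp in RXRKO and 14385 bp in WT, nearly the same. H3K27ac covered 5923 bp in RXRKO and 9114 bp in WT, a log2 difference of −0.47. The direction turned with peaks of fold 4 or more, where 4190 bp were covered in RXRKO and 2412 bp in WT (+0.68). The difference was −0.14 with peaks of −log10 q 5 or more. With 5 kb on each side it was −0.63, past the 1.5-fold line, as were 2.41% of all genes tested in that direction. At the Rara start at 98937696 on chromosome 11, H3K4me3 covered 1836 bp within 1 kb in RXRKO and 1911 bp in WT, whereas H3K27ac covered 0 bp in RXRKO and 449 bp in WT. At another listed start, 98964872, it covered 79 bp in RXRKO and 140 bp in WT. In pooled cells, a mark in fewer cells and less of it per cell cannot be told apart. Of the 13 H3K27ac regions in the Rara window, 0 were called in RXRKO alone and 6 in WT alone, where 13% and 23.9% of all H3K27ac regions were. The window also reaches Cdc6, Gm46294, Gjd3 and Top2a, whose own peaks count in these lengths.

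Rarb encodes the receptor whose gene is itself induced by retinoic acid. H3K4me1 covered 36465 and 44947 bp of its window in RXRKO and 44482 and 42536 bp in WT. One RXRKO library was the lowest of the 4 and the other the highest. The log2 difference was −0.16 (SE 0.072, unadjusted p = 0.049, limma adjusted p = 0.84), −0.26 within replicate 1 and −0.06 within replicate 2. H3K4me3 covered 11043 bp in RXRKO and 7605 bp in WT, and 8 of the 18 merged H3K4me3 regions of the window were called in RXRKO alone, against 2 in WT alone, where 22.2% and 4.22% of all H3K4me3 regions were. The H3K4me3 log2 difference was +0.41, and +0.16 with equal peak numbers taken from each list or +0.15 with peaks of fold 4 or more. H3K27ac covered 16527 bp in RXRKO and 17074 bp in WT, a log2 difference of +0.03 with centring and −0.04 without.

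At the listed Rarb start (chromosome 14, 16575476, minus strand) the marks parted. H3K4me3 covered 1546 bp within 1 kb in RXRKO and 1494 bp in WT, at the authors' folds over background of 7.09 and 5.89. H3K27ac covered 0 bp there in RXRKO, while a WT peak of 1040 bp (fold 2.88) lay over the start. The DR5 printed above lay inside the H3K4me3 peak of both genotypes. No RXRKO H3K27ac or H3K4me1 peak covered it, whereas in WT the H3K27ac peak and the replicate 2 H3K4me1 peak did. WT replicate 1 had no H3K4me1 peak there either. Within 1 kb of the start, H3K4me1 covered 420 and 309 bp in RXRKO and 0 and 442 bp in WT. The RXRKO replicate 2 H3K4me1 peak began at 16575553, close to the repeat. The RXRKO H3K27ac peak nearest to the start ran from 16576713 to 16576960 and was 248 bp long. With 1 library a genotype for H3K27ac, the absence of this peak in RXRKO has no replicate check.

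**Figure D2:**
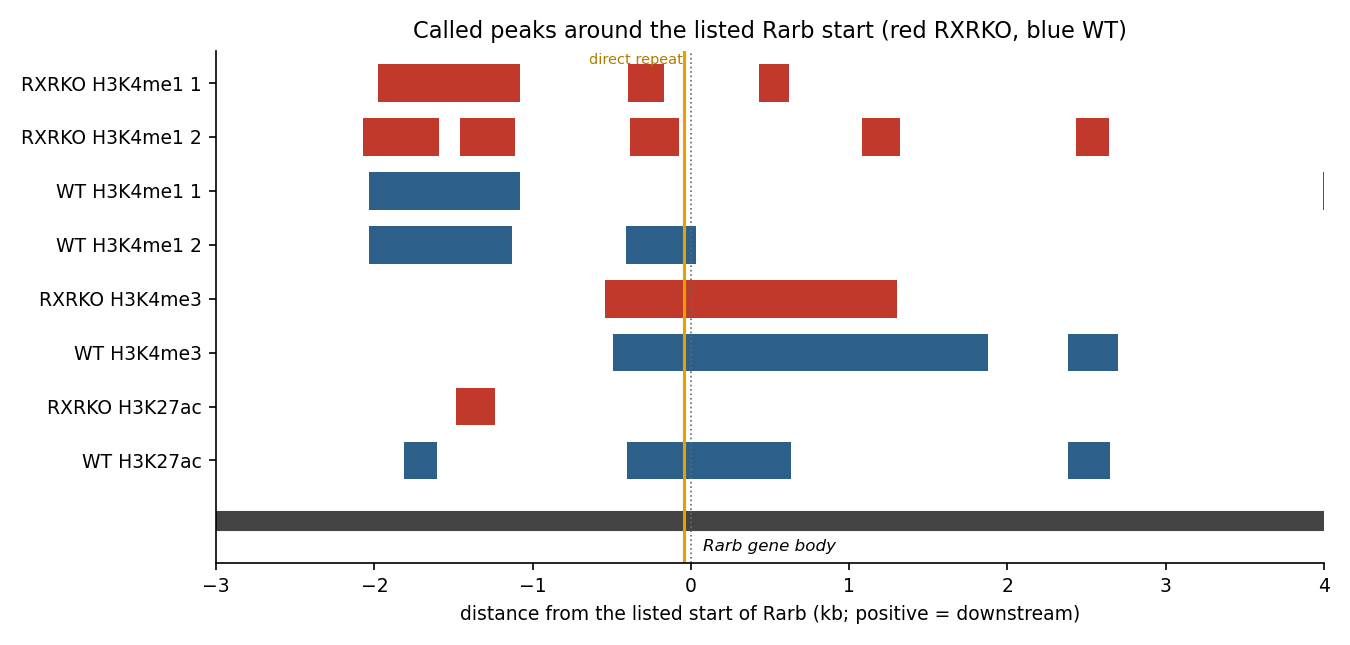
Called peaks by library around the listed Rarb start, in kb along the gene, RXRKO rows (red) above WT rows (blue) for each mark, with the direct repeat as a yellow line and the gene body as a grey bar. H3K4me3 covers the repeat in both genotypes, and H3K27ac covers it in WT alone.

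Further inside Rarb, 4 of the window's 67 merged H3K4me1 regions were called in both WT libraries and neither RXRKO library. The reverse held for 1, where the shares over all H3K4me1 regions were 1.94% and 2.17%. The longest of the WT-only regions, chr14:16713610-16715343, measured 1734 bp and lay 139000 bp before the listed start, within the annotated gene. Its WT peaks had folds of 7.55 in replicate 1 and up to 5.49 in replicate 2, and a WT H3K27ac peak of 317 bp (fold 3.81) lay in it. No RXRKO library of any mark had a peak there. The other WT-only regions had folds of 2.42 to 4.38 and spanned at most 482 bp. The RXRKO-only region, chr14:16742372-16742954, had folds of 2.72 and 2.43.

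Rarg encodes the gamma receptor, which has been studied in HSC self-renewal. H3K4me1 covered 8902 and 12522 bp of its window in RXRKO and 9071 and 10318 bp in WT. The groups overlapped, with a log2 difference of +0.06 (SE 0.092, limma adjusted p = 0.998). H3K4me3 covered 9118 bp in RXRKO and 8219 bp in WT, and H3K27ac covered 5391 bp in RXRKO and 6068 bp in WT. At the Rarg start at 102257522 on chromosome 15, H3K27ac covered 1185 bp in RXRKO and 1257 bp in WT, a call in both genotypes. At its other listed start, 102246500, H3K27ac covered 159 bp in RXRKO and 554 bp in WT, while H3K4me3 covered 2001 bp in both. Of the window's 15 H3K4me1 regions, 1 was called in both RXRKO and in neither WT library, where 2.17% of all H3K4me1 regions were. It lay inside the gene, chr15:102242748-102243226, and measured 479 bp, at folds of 1.89 and 1.79. Genes with the most similar covered lengths over the 8 libraries were Nbeal2, Pip4k2b and Nrarp for Rarg (Euclidean distance of log2 values 0.18 to 0.214, median over all genes 2.97). They were Dgkz, Nfic and Arhgap23 for Rara (0.385 to 0.492, median 4.58) and Tbc1d22a, Plcb4 and Gnaq for Rarb (0.331 to 0.394, median 6.74).

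Cyp26b1, which encodes an enzyme that breaks down retinoic acid, held no H3K27ac peak at all in RXRKO, against 2991 bp in WT. No other gene of the 16599 tested had 0 bp in RXRKO with at least that length in WT, although 9036 genes had at least that length in WT. The reverse pattern was found in 0 genes, and this count and its length were chosen after the values of Cyp26b1 were seen. The 5 WT peaks ran from 355 to 1233 bp. The longest, chr6:84568713-84569945, lay beyond the gene's 3′ end with a fold of 3.79 and a −log10 q of 9.61, and the other 4 lay in the gene body with folds of 2.21 to 3.23. On the log2(bp + 1000) scale the difference was −1.92, a size set by the added 1000 bp since RXRKO is listed at 0. It was the only one of the 9 genes to pass 1.5-fold in H3K27ac, in a comparison in which 2.32% of all genes passed in the lower direction. By the size of the difference, 35 genes were as low as Cyp26b1 or lower with peaks of −log10 q 5 or more, and 792 with windows of 50 kb, where it had 4375 bp in RXRKO and 6697 bp in WT. With the window at 50 kb no gene of the 9 passed, and with peaks of fold 4 or more Cyp26b1 had no WT H3K27ac left to compare.

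For the other marks, Cyp26b1 had peaks in both genotypes. H3K4me3 covered 5324 bp in RXRKO and 5237 bp in WT, of which 4860 bp in RXRKO and 4531 bp in WT lay in the gene body and none within 1 kb of the listed start at 84593810. H3K4me1 covered 6164 and 9135 bp in RXRKO and 8626 and 8959 bp in WT. The first RXRKO library was the lowest and the second the highest of the 4. The log2 difference was −0.26 (SE 0.1, unadjusted p = 0.0266, limma adjusted p = 0.779), −0.41 within replicate 1 and −0.11 within replicate 2. At an unadjusted p under 0.05, 2.74% of all genes were lower in RXRKO, and 2 of the 9 genes here were (Cyp26b1 and Rarb). Of the window's 12 H3K4me1 regions, 2 were called in both WT libraries only and 0 in both RXRKO libraries only. Over all H3K4me1 regions, the shares were 1.94% and 2.17%. The WT-only regions were chr6:84562559-84563483 (folds 4.07 and 2.9) and chr6:84598883-84599433 (folds 2.87 and 2.39). No other annotated protein-coding gene lies in the window.

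**Figure D3:**
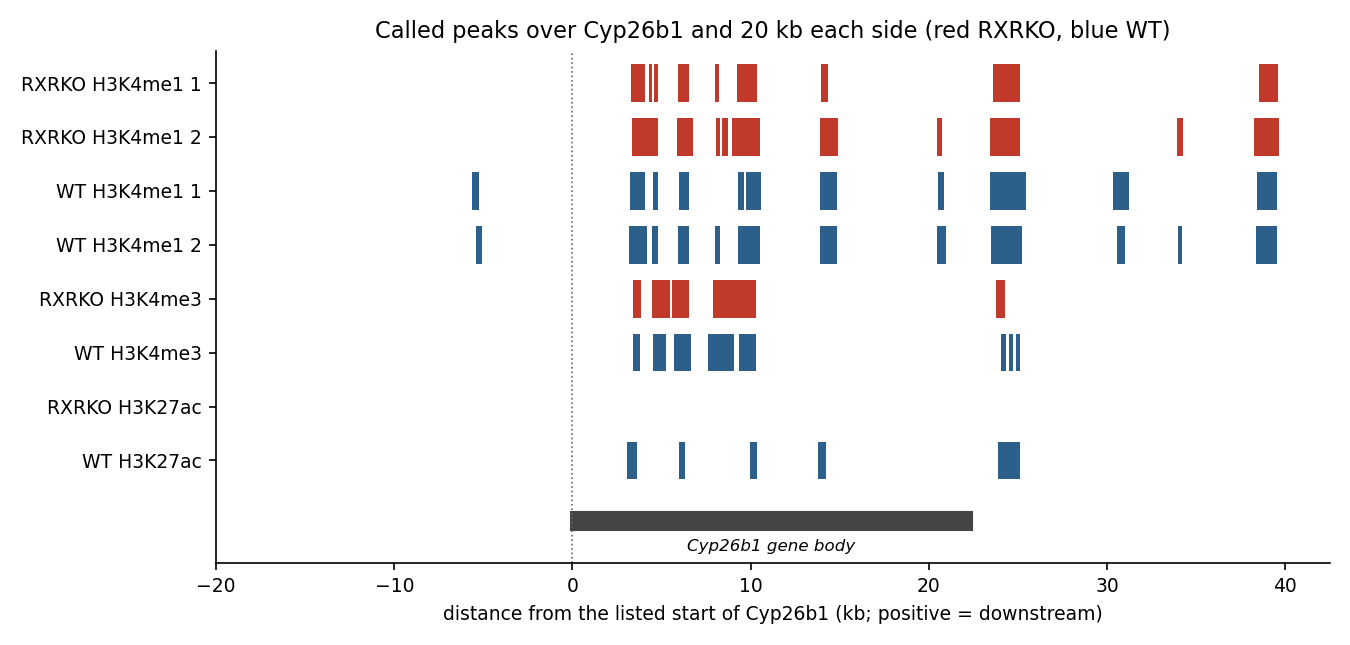
Called peaks by library over Cyp26b1 and 20 kb each side, in kb from the listed start along the gene, RXRKO rows (red) above WT rows (blue) for each mark. The RXRKO H3K27ac row is empty while the WT row holds 5 peaks, and H3K4me3 lies inside the gene in both genotypes.

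Cyp26a1, the other breakdown enzyme and a textbook target, had peaks of each mark within 1 kb of its start in both genotypes. H3K4me1 covered 4231 and 5250 bp of its window in RXRKO and 4411 and 6358 bp in WT. The groups overlapped, with a log2 difference of −0.20 (SE 0.126, limma adjusted p = 0.94), −0.03 within replicate 1 and −0.37 within replicate 2. With H3K4me1 peaks of fold 4 or more the difference was +0.76. H3K4me3 covered 3923 bp in RXRKO and 3496 bp in WT and all of the 2 kb around the start in both. With peaks of fold 4 or more it covered 3290 bp in RXRKO and is listed at 0 in WT, since the RXRKO peak at the start had a fold of 4.05 and the WT peak a fold just under that minimum. The DR5 lay under H3K4me1 peaks in all 4 libraries and under H3K4me3 in both genotypes, and under H3K27ac in neither. H3K27ac covered 479 bp of the window in RXRKO and 1251 bp in WT (log2 difference −0.53). Within 1 kb of the start it covered 298 bp in RXRKO and 419 bp in WT, and within 500 bp none in either. With peaks of fold 4 or more it covered 0 bp of the window in RXRKO and 1022 bp in WT (−0.94). That passed 1.5-fold downward, as did 10.5% of all genes tested. The WT peak near the start, chr19:37696594-37697226 (633 bp, fold 4.77), reached beyond the 1 kb. The RXRKO peak there measured 479 bp, at a fold of 3.48. The other WT peaks were a pair of short ones downstream, chr19:37704108-37704336 and chr19:37715955-37716343. Exoc6 and Cyp26c1 share this window. A listed start of Gm32342 lies 636 bp from the middle of the H3K27ac region near the Cyp26a1 start, which itself is 898 bp away.

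Dhrs3 encodes a reductase that returns retinaldehyde to retinol and so limits retinoic acid synthesis. H3K4me1 covered 10386 and 13510 bp in RXRKO and 10685 and 12020 bp in WT. The groups overlapped and the log2 difference was 0.00 (6.95e-05, SE 0.079, limma adjusted p = 1). H3K4me3 covered 6242 bp in RXRKO and 3646 bp in WT, a log2 difference of +0.56, just under the 1.5-fold line. H3K27ac lay on the other side, with 2815 bp in RXRKO and 4674 bp in WT (−0.50). At the start at 144893077 on chromosome 4, H3K4me3 covered 2001 bp in RXRKO and 1933 bp in WT, and H3K27ac covered 0 bp in RXRKO and 568 bp in WT. At the listed start at 144892827 H3K27ac covered 54 bp in RXRKO and 629 bp in WT, and around the outer end of the gene 347 bp in RXRKO and 922 bp in WT, so a call was made in both genotypes there. Of 6 H3K4me3 regions, 3 were called in RXRKO alone, all in the flanks, and 0 in WT alone, where 22.2% and 4.22% of all regions were. Over the gene body alone the H3K4me3 difference was +0.13, and with the same number of peaks it was +0.28. The window also holds part of Vps13d.

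Aldh1a1, which encodes a dehydrogenase that makes retinoic acid from retinaldehyde, was the gene in which all of the H3K27ac regions were shared. H3K27ac covered 4546 bp in RXRKO and 3753 bp in WT (log2 difference +0.29), and all 4 regions were called in both genotypes, where 63.2% of all H3K27ac regions were. At the start at 20601968 on chromosome 19, H3K27ac covered 1356 bp in RXRKO and 1351 bp in WT. H3K4me3 covered the whole 2 kb there in both. H3K4me1 covered 9162 and 11115 bp of the window in RXRKO and 9504 and 7509 bp in WT. The replicate 1 libraries differed little and the replicate 2 libraries more, at −0.03 and +0.38, for a log2 difference of +0.17 (SE 0.112, limma adjusted p = 0.951). The outermost annotated start, at 20492583, had no peak of any mark.

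Crabp2 encodes the protein that carries retinoic acid into the nucleus. H3K4me1 covered 8546 and 10070 bp in RXRKO and 8649 and 10053 bp in WT, with a log2 difference of −0.07 (SE 0.081, limma adjusted p = 0.998). H3K4me3 covered 7700 bp in RXRKO and 7939 bp in WT. H3K27ac covered 1854 bp in RXRKO and 3140 bp in WT (log2 difference −0.46). Of its 6 H3K27ac regions, 1 was called in RXRKO alone and 3 in WT alone, where 13% and 23.9% of all H3K27ac regions were. The window also reaches Rrnad1, Isg20l2 and Nes.

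Stra6 encodes the cell-surface receptor through which vitamin A is taken up from retinol-binding protein. H3K4me1 covered 11442 and 13581 bp in RXRKO and 10900 and 12471 bp in WT. These overlapped, with a log2 difference of +0.03 (SE 0.075, limma adjusted p = 0.998). H3K4me3 covered 3658 bp in RXRKO and 2795 bp in WT. At the start at 58129088 on chromosome 9, the peak was 822 bp long in RXRKO (fold 6.51) and 426 bp long in WT (fold 2.93). H3K27ac covered 1341 bp in RXRKO and 1416 bp in WT and was absent from every listed start. Ccdc33 and Islr share the window.

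**Figure D4:**
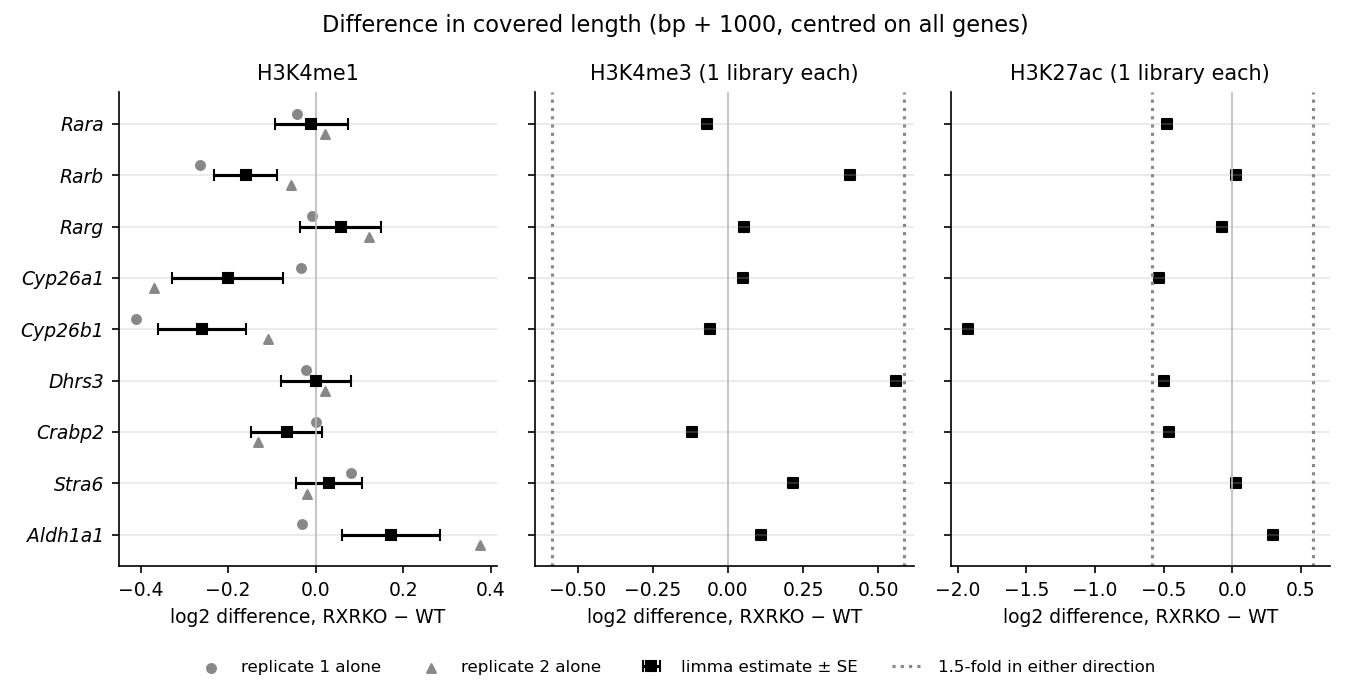
Log2 difference in covered length, RXRKO minus WT, per gene and mark. For H3K4me1, squares and bars give the limma estimate ± SE over 2 libraries per genotype and grey symbols the values within each replicate number, and for the other marks each square is 1 library against 1. Cyp26b1 H3K27ac, at −1.92, is the only point past the dotted 1.5-fold lines.

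Promoter calls, counted by the gene's outermost annotated end with a peak within 1 kb, gave H3K4me3 in both genotypes for 5 of the 9 genes, where 63.8% of all genes had it. H3K27ac was called in both for 3, where 53.8% of genes had it. It was called in WT alone for 1, Crabp2, where 4.44% of genes were. Crabp2 has no listed strand, so its end with more H3K4me3 was taken as the start. WT H3K27ac covered 207 bp within 1 kb of that end. Within 500 bp of the start, Crabp2 was called in neither genotype and Dhrs3 in WT alone, where 4.8% of genes were. None of the 9 had H3K4me3 in RXRKO alone (1.23% of all genes) or in WT alone (0.462%), or H3K27ac in RXRKO alone (1.18%). By any start that RefSeq lists, 7 of the 8 genes with an entry had H3K4me3 in both genotypes (66.8% of all genes), Cyp26b1 being the exception, and none had it in RXRKO alone (0.944%) or WT alone (0.318%). H3K27ac was then called in both for Rara, Rarg, Cyp26a1, Dhrs3 and Aldh1a1, which are 5 genes (57.6% of all genes), in RXRKO alone for none (0.949%), in WT alone for Rarb (3.99%) and in neither genotype for Cyp26b1 and Stra6.

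Over all windows together, H3K27ac peaks were fewer and shorter in sum in RXRKO, with 53 peaks over 38876 bp, against 72 peaks over 49481 bp in WT. For H3K4me3 the windows held 63 peaks over 66003 bp in RXRKO and 55 over 57151 bp in WT, in lists whose totals were 58136 peaks over 53.75 Mb in RXRKO and 47835 peaks over 45.51 Mb in WT. The whole H3K27ac lists numbered 64849 peaks in RXRKO and 74287 in WT. For H3K4me1 the 9 windows held 147 and 167 peaks in RXRKO and 166 and 174 in WT. The recovered background also ran lower in RXRKO for H3K27ac and higher for H3K4me3, and its part in these sums was not tested. Of the 9 genes, 6 lay below 0 for H3K27ac, with a median of −0.465, beside 50% of all genes by construction, and 8 lay below 0 without centring, where 63.2% of all genes did. The median was −0.18 with 50 kb windows, −0.218 with equal peak numbers and 0.0123 with peaks of fold 4 or more, where 4 genes lay below 0 and 4 above. For H3K4me3, 6 lay above 0, with a median of 0.0544. Without centring 1 lay below 0, where 21% of all genes did. None of the 9 passed 1.5-fold in H3K4me3 (1.88% of all genes passed upward and 0.116% downward).

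Peaks were also merged across libraries of a mark and each merged region counted by the libraries that called it. Of the 79 H3K27ac regions in the 9 windows, 7 were called in RXRKO alone and 28 in WT alone. These are 8.86% and 35.4% of the members' regions, beside 13% and 23.9% of all regions. With the same number of peaks taken from each list, the WT-only share was 26.1% in the windows and 17.8% overall. With peaks of fold 4 or more it was 24% and 25%, no longer above the background. Of 68 H3K4me3 regions, 16 (23.5%) were called in RXRKO alone and 6 (8.82%) in WT alone, beside 22.2% and 4.22% of all regions. Of 187 H3K4me1 regions, 3 (1.6%) were called in both RXRKO libraries only and 8 (4.28%) in both WT libraries only, beside 2.17% and 1.94%.

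**Figure D5:**
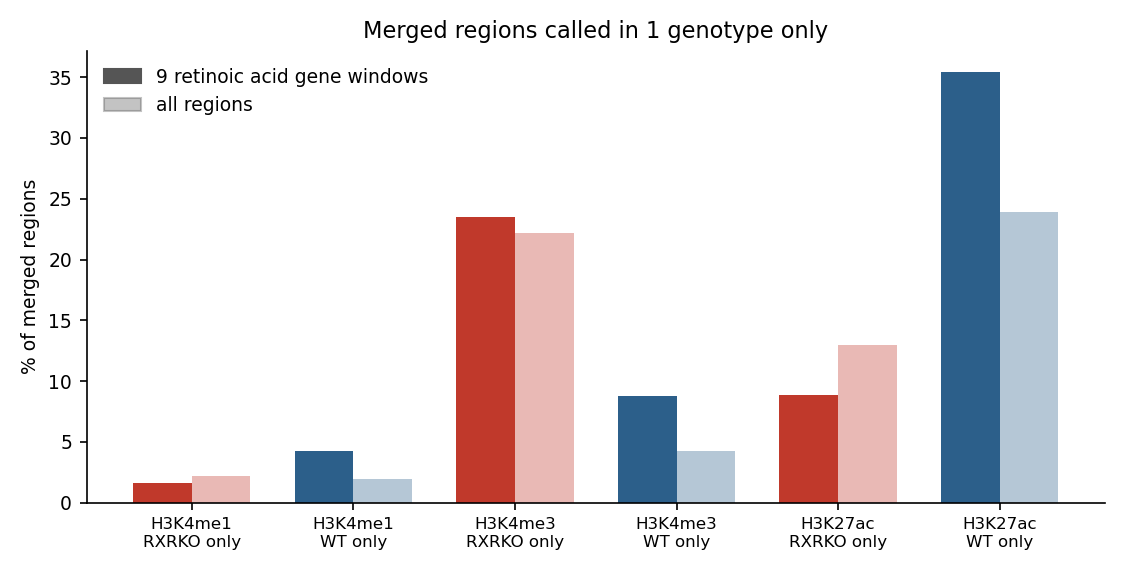
Share of merged regions called in 1 genotype only, for each mark, in the 9 gene windows (solid bars) and over all regions (pale bars), RXRKO left of WT. The WT-only H3K27ac share was 35.4% in the windows and 23.9% over all regions.

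Of 28 other genes of retinoid metabolism and transport that were tested for H3K4me1, 10 lay above 0 and 18 below, with a median of −0.0203, and 0 passed the test. Those with the smallest p upward were Rdh10, a retinol dehydrogenase, at +0.32, and Dhrs9 at +0.19, and downward Fabp5, a fatty-acid binding protein that also binds retinoic acid, at −0.27, and Aldh1a7 at −0.27. Among 10 receptor partners and cofactors, 5 lay above and 5 below, with Ppard at +0.09, and Rxrb at −0.19 and Ncoa3 at −0.12. Among 16 retinoic acid targets, 8 lay above and 8 below. Hoxb1 at +0.19 and Ucp1 at +0.19 had the smallest p upward, and Cd38 at −0.28 and Rarres2 at −0.16 downward, and none passed the limma test (adjusted p from 0.561 for Cd38). For H3K27ac, 15 of 24 metabolism genes and 10 of 15 targets lay below 0 with medians of −0.102 and −0.151, while 9 of 10 partners lay above.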

How the data were processed

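The authors' peak lists, 1 per library, were used as deposited. Per the submitters' processing notes, reads were trimmed with cutadapt 1.7.1, aligned to mm10 with Bowtie2 2.2.5 and peaks called with MACS3. Its version, any control library and duplicate handling were not given in the sources used here. In the deposited lists the score is 10 times the −log10 q cut to a whole number (99.95% of peaks match). The authors' fold is the ratio of summit pileup to local background, and the authors' −log10 p and q values come from the same caller. These were used to describe or filter peaks within a list.

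Covered base pairs per gene window, log2(bp + 1000) and centred on the library median, were tested for H3K4me1 with limma 3.58.1 (eBayes with trend, mean covered length of at least 1000 bp, Benjamini-Hochberg) under R 4.3.3. H3K4me3 and H3K27ac, with 1 library a genotype, were compared by a 1.5-fold line with no test, over genes with at least 500 bp. Merging needed 1 bp of overlap. The replicate 1 H3K4me1 libraries of both genotypes share a run tag and the other 6 libraries share another, so the replicate number is a batch that holds both genotypes. It was also fitted as a block, and over 17760 genes the replicate differences of RXRKO and WT correlated at r = 0.212. Coordinates are 1-based on mm10, from the deposited lists and RefSeq GRCm38.p6, whose table gave gene ends but no exons. The analysis was tested on simulated data. All 9 genes, the sites called in 1 genotype only, the pathway genes with the smallest p in each direction and the 3 most similar genes per receptor were named by rule, except 1 pathway gene that is not reported here. The genes and lists were chosen with earlier results of these data known. Alternatives covered the window, fold and q minimums, peak number, added length, centring, filter and left-out libraries.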

Additional observations from a re-analysis of the deposited data

How the results depend on the processing

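No retinoic acid gene was called for H3K4me1 under any of 14 alternatives (lowest adjusted p 0.211, Aldh1a1 without WT replicate 1). Over all genes, called genes higher and lower numbered 0 and 0. With the replicate block they numbered 2 and 0, a paired fit that called none of the 9, also 2 and 0 with a −log10 q of at least 5, 129 and 75 without the minimum length, and 57 and 8 without centring. Leaving out 1 library gave 0 to 75 higher and 0 to 30 lower (58 and 30 when WT replicate 1 was omitted, 10 and 3 for WT replicate 2, 75 and 23 for RXRKO replicate 1). The H3K4me1 sign turned under some alternatives, also for Cyp26a1 (−0.20 as reported) and Aldh1a1 (+0.17 as reported). Rara reached 0.012 (50 kb), 0.021 (gene body alone), 0.118 (fold 4), 0.049 (no centring) and −0.106 to 0.085 with 1 library left out. Rarg reached −0.27 (fold 4) and −0.059 to 0.172 with 1 library left out, and Cyp26a1 0.76 (fold 4). Dhrs3 reached −0.0091 (5 kb), −0.092 (gene body), −0.256 (fold 4), −0.033 (q), −0.0035 (100 bp added) and −0.066 to 0.065 with 1 library left out. Crabp2 reached 0.051 (5 kb) and 0.114 (gene body), Stra6 −0.0033 (gene body) and −0.025 to 0.084 with 1 library left out, and Aldh1a1 −0.016 to 0.358 likewise.

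For H3K4me3, in place of 0 genes, 1 passed upward, which was Dhrs3 with 50 kb, 100 bp added, no minimum or no centring, and Cyp26a1 with fold 4. Over all genes tested, 1.58%, 4.13%, 2.07%, 2.91% and 2.18% passed upward, in that order. For H3K27ac, 3 passed downward with 5 kb (Rara, Dhrs3 and Cyp26b1) and 0 with 50 kb. Fold 4 gave 2 (Cyp26a1 and Dhrs3), and q of 5 gave 2 (Cyp26b1 and Dhrs3). No minimum and no centring each gave 2 (Cyp26a1 and Cyp26b1). With 100 bp added, 4 passed downward (Crabp2, Cyp26a1, Cyp26b1 and Dhrs3), and 1 (Rara) passed upward with fold 4. Over all genes tested, 2.41% passed downward with 5 kb, 1.95% with 50 kb, 10.5% with fold 4 and 3.82% with q of 5. The share was 3.14% with no minimum, 3.43% with no centring and 6.26% with 100 bp added. Upward, 3.86% passed with fold 4. H3K4me1 regions of RXRKO alone numbered 1 with fold 4 (1.49%, beside 1.26% of all regions, and 3 as reported). With 1 library left out they numbered 7 to 16 (3.87% to 8.65%, beside 4.52% to 11.4% of all regions). Those of WT alone then numbered 8 to 21 (4.32% to 11.3%, beside 3.59% to 7.16% of all regions, and 8 as reported). Cuts chosen after seeing the data changed the counts of the other marks. For H3K4me3 with fold 4, 7 regions were of RXRKO alone (20%, beside 13.2% of all regions) and 2 of WT alone (5.71%, beside 7.61%). With the same number of peaks, 7 were of RXRKO alone (11.9%, beside 10.9%) and 9 of WT alone (15.3%, beside 9.69%). H3K27ac regions of RXRKO alone numbered 3 with fold 4 (12%, beside 14.6% of all regions) and 2 with q of 5 (3.7%, beside 11.2%). Those of WT alone numbered 6 with fold 4 (24%, beside 25%) and 17 with q of 5 (31.5%, beside 24.2%). With the same number of peaks, 18 were of WT alone (26.1%, beside 17.8%). Promoters with H3K27ac in both genotypes numbered 1 with 500 bp (50.1% of all genes) and 5 with any listed start (57.6% of all genes). In WT alone they numbered 0 with q of 5 (5.68% of all genes) or the same number of peaks (3.48%). Causes were not tested. Depth is unknown, so an absent peak may lie below the caller's limit.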
